A study of Homo sapiens with 12 samples.

Results

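The 30 genes described here make cholesterol and fatty acids or steer that synthesis, and they were taken by symbol from the 22650 gene symbols listed in any library of an RNA-seq study of ASAP2, whose protein switches off Arf GTPases in membrane traffic. They comprise 18 sterol enzymes, 8 fatty acid enzymes and 4 regulators or carriers. The groups were ASAP2 knockout (KO) Panc1 cells, wild-type (WT) Panc1 cells, ASAP2 KO MiaPaCa2 cells and WT MiaPaCa2 cells, with 3 libraries each and 12 libraries in all. Panc1 and MiaPaCa2 are established human cell lines of pancreatic ductal adenocarcinoma, kept without other treatment as far as the labels say. The labels do not name the method of knockout, the number of clones per KO group or the cultures behind the libraries. P-values here therefore cover the spread between these libraries alone, which may be technical, and knockout and clone cannot be told apart if a KO group holds 1 clone.

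Cells build cholesterol from acetyl-CoA through mevalonate, isoprenoid pyrophosphates, squalene and lanosterol, and they build fatty acids from acetyl-CoA and malonyl-CoA, then desaturate and elongate them. The transcription factors encoded by SREBF1 and SREBF2 switch on most genes of these pathways when membranes of the endoplasmic reticulum run low in sterol; SCAP escorts them to the Golgi, where proteases release the active part, and INSIG1 retains SCAP when sterol is plentiful. SREBF2 acts more on the sterol branch and SREBF1 more on the fatty acid branch. In pancreatic cancer cells, as in other tumour cells, these pathways supply membrane lipid and prenyl groups for small GTPases.

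Promoter sequences are shown for the 5 genes on which most of the comparisons below turn. SCD had the highest level of the members in each group, FDPS and SREBF2 were higher in KO cells of Panc1, EBP was lower in KO cells of both lines, and STARD4 was lower in Panc1 KO cells and was hardly listed in MiaPaCa2. The windows are RefSeq promoters in GRCh38.p14, 250 bases before to 50 bases after the gene start, written 5′ to 3′ on the gene's own strand. Capitals mark the CCAAT box, read CCAAT or, on the other strand, ATTGG, and in SREBF2 also the sterol regulatory element TCACNCCAC. The windows lie at chr10:100346983-100347282 (plus strand), chr1:155308616-155308915 (plus strand), chr22:41832855-41833154 (plus strand), chrX:48521558-48521857 (plus strand) and chr5:111512486-111512785 (minus strand).
SCD: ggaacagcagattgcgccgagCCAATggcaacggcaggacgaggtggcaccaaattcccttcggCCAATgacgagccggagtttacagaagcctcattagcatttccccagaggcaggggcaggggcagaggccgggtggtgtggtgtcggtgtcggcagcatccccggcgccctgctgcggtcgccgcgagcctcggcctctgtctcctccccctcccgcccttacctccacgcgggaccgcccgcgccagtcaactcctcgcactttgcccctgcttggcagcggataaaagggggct
FDPS: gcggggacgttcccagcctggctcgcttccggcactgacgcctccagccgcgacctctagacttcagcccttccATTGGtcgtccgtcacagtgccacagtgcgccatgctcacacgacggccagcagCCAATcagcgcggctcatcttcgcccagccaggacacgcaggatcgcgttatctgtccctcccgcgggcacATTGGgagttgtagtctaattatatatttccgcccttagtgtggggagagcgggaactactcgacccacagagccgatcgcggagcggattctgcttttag
SREBF2: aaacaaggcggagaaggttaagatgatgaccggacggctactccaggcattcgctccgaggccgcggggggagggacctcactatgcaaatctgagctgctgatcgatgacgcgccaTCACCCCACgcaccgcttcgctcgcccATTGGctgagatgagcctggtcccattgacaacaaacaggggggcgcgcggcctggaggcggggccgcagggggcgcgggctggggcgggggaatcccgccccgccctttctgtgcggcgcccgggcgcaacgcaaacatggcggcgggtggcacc
EBP: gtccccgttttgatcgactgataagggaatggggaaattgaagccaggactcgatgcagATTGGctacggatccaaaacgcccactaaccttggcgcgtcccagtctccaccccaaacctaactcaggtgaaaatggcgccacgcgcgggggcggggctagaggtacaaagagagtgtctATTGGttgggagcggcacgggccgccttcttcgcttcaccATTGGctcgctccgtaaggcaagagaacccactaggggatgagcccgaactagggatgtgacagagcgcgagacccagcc
STARD4: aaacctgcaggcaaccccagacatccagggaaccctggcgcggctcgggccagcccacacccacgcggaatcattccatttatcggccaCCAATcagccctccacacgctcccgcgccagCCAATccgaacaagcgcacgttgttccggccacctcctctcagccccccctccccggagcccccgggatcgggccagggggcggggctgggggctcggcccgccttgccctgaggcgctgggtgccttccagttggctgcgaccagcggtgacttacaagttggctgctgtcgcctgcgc

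Of the 30 members, 26 matched a RefSeq promoter; ACAT2, FDFT1, SQLE and FASN had no entry. One window was used per gene, the first listed for its symbol, and each motif was searched on both strands. CCAAT, the site of the NF-Y factor that works beside sterol-regulated factors, occurred in 18 of the 26 windows (69.2%), against 35.7% of all 27305 RefSeq windows and 36.8% of the 9917 windows of tested genes. GGGCGG, the GC box bound by Sp1, occurred in 24 (92.3%), against 44.6% and 71.3%. TCACNCCAC occurred in 1 window, that of SREBF2, at position -133 from the start, against 1.15% of all windows and 1.11% of those of tested genes. Only this form was searched, so a window without it may still hold a sterol regulatory element that differs from it. CACGTG, the E-box, occurred in 3 (11.5%, those of LSS, SC5D and INSIG1), against 7.43% and 10.3%. No member window had overlapping sites of different motifs. The printed SCD window holds 2 CCAAT sites, those of FDPS and EBP 3 each, that of STARD4 2 and that of SREBF2 1.

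The values are FPKM, fragment counts scaled for transcript length and for the number of mapped fragments, as deposited; they summed to 360765 to 392610 per library, and libraries of a group correlated across genes at r = 0.9936 to 0.9971. Read depth is unknown. ASAP2 had 14.2, 14.5 and 12.7 FPKM in Panc1 KO libraries, against 38.6, 37.49 and 34.6 FPKM in Panc1 WT libraries. In MiaPaCa2 it had 12.01, 13.8 and 11.3 FPKM in KO libraries, against 13.2, 13.6 and 13.8 FPKM in WT libraries, where the ranges overlap (log2 change -0.13 ± 0.07 SE, limma adjusted p = 0.197); a value over the whole gene does not check a small deletion. Of the pancreatic epithelial markers, KRT8 averaged 514 FPKM in Panc1 KO and 372 FPKM in Panc1 WT cells, KRT18 404 and 310 FPKM, KRT19 254 and 541 FPKM, KRT7 2.76 and 2.48 FPKM, and EPCAM 3.49 and 2.63 FPKM in the same groups. In MiaPaCa2 KRT8 averaged 457 FPKM in KO and 649 FPKM in WT cells, KRT18 392 and 487 FPKM, and KRT19 35.01 and 105 FPKM, while KRT7 had at most 0.081 FPKM and EPCAM was not listed. Of 13 markers of leukocytes, endothelium, adipocytes and hepatocytes, CD14 reached the highest value, at 0.10 to 0.51 FPKM, and the others stayed at or below 0.253 FPKM. In MiaPaCa2 APOA1 was above CD14 in some libraries. Their means there were 0.164 and 0.149 FPKM in WT cells and 0.112 and 0.163 FPKM in KO cells.

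The members set 2 MiaPaCa2 libraries apart. Library 2 of the MiaPaCa2 KO group had the highest value of its 3 libraries for 27 of 30 members, against 35.1% of the 13340 genes tested, and library 1 of the MiaPaCa2 WT group had the highest value for 28 of 30, against 40.2%. The members' median distance from the mean of the other 2 libraries of the group was 0.31 log2 units in that KO library and 0.36 in that WT library, where the medians over all tested genes were -0.01 and 0.01. SCD, the desaturase that makes oleate, had 155, 318 and 151 FPKM in MiaPaCa2 KO libraries, against 218, 105 and 99.7 FPKM in MiaPaCa2 WT libraries. DHCR7, the reductase of the last step to cholesterol, had 26.1, 43.3 and 24.4 FPKM in KO libraries, against 27.4, 13.99 and 13.9 FPKM in WT libraries. For both genes KO library 2 stood above every other MiaPaCa2 library, and WT library 1 stood above KO libraries 1 and 3, so that the groups overlap.

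These 2 libraries were picked by the members' own values, so the counts and ranks given here describe the members and are no test. Counted gene by gene, 18 of 30 members were at least 0.25 log2 units above the mean of the other 2 libraries in both of these libraries, where 1.08% of all tested genes were (144 of 13340). No member was that far below in both. Ranked by the smaller of the 2 distances, SCD was the first and DHCR7 the second of all 13340 genes, INSIG1 was at rank 6, MSMO1 at 16 and FADS2 at 17. The members below that mark were ACAT2, HMGCS1, PMVK, FDPS, NSDHL, HSD17B7, EBP, SC5D, ACLY, ELOVL6, ACSL3 and STARD4. Median distances in the same KO and WT libraries were 0.03 and 0.05 over 9 other sterol genes, and -0.06 and 0.08 over 16 genes of fatty acid oxidation. Panc1 libraries lay closer together, although Panc1 KO library 3 was highest of its group for 22 of 30 members (33.6% of all genes), with a median distance of 0.13. Across all tested genes, the deviations of MiaPaCa2 KO library 2 and WT library 1 from their group means correlated at r = 0.25. Why these 2 libraries stand apart was not tested, and results that rest on them are given with and without them.

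**Figure D1:**
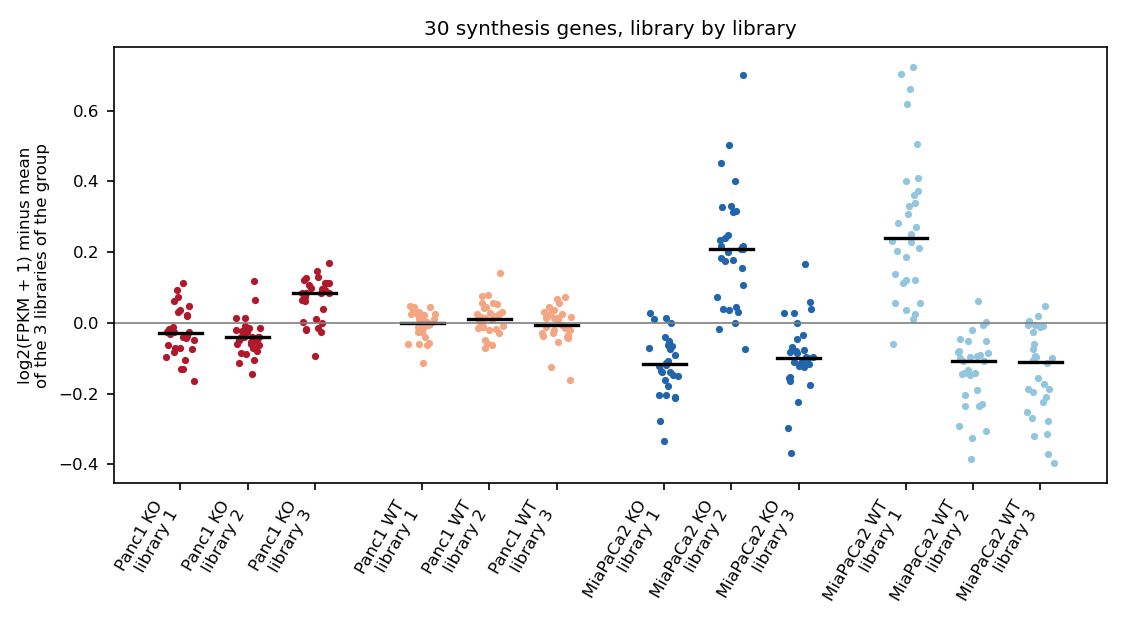
Each point is 1 of the 30 genes in 1 library, as log2(FPKM + 1) minus the mean of the 3 libraries of its group, and black bars are medians. MiaPaCa2 KO library 2 and MiaPaCa2 WT library 1 stand above the rest, with 27 and 28 of 30 genes at their group's highest value.

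SCD was highest in each group, with means of 345 ± 22.6 FPKM in Panc1 KO, 195 ± 2.44 in Panc1 WT, 208 ± 95.3 in MiaPaCa2 KO and 141 ± 66.8 in MiaPaCa2 WT cells (SD, n = 3 each). In Panc1, FADS2, which starts the synthesis of long polyunsaturated fatty acids, came next, at 196 ± 13.7 FPKM in KO and 120 ± 2.43 FPKM in WT cells. In MiaPaCa2 the second place went to ACLY, which makes cytosolic acetyl-CoA from citrate, at 96.9 ± 3.74 FPKM in KO and 93.3 ± 6.46 FPKM in WT cells. STARD4, a cytosolic sterol carrier, was lowest in each group, at 1.496 ± 0.130 FPKM in Panc1 KO and 3.30 ± 0.0466 FPKM in Panc1 WT cells; in MiaPaCa2 it was listed in 1 of the 6 libraries, WT library 1, at 0.01 FPKM. Between 24 and 27 of the 30 members averaged 10 FPKM or more in a group.

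**Figure D2:**
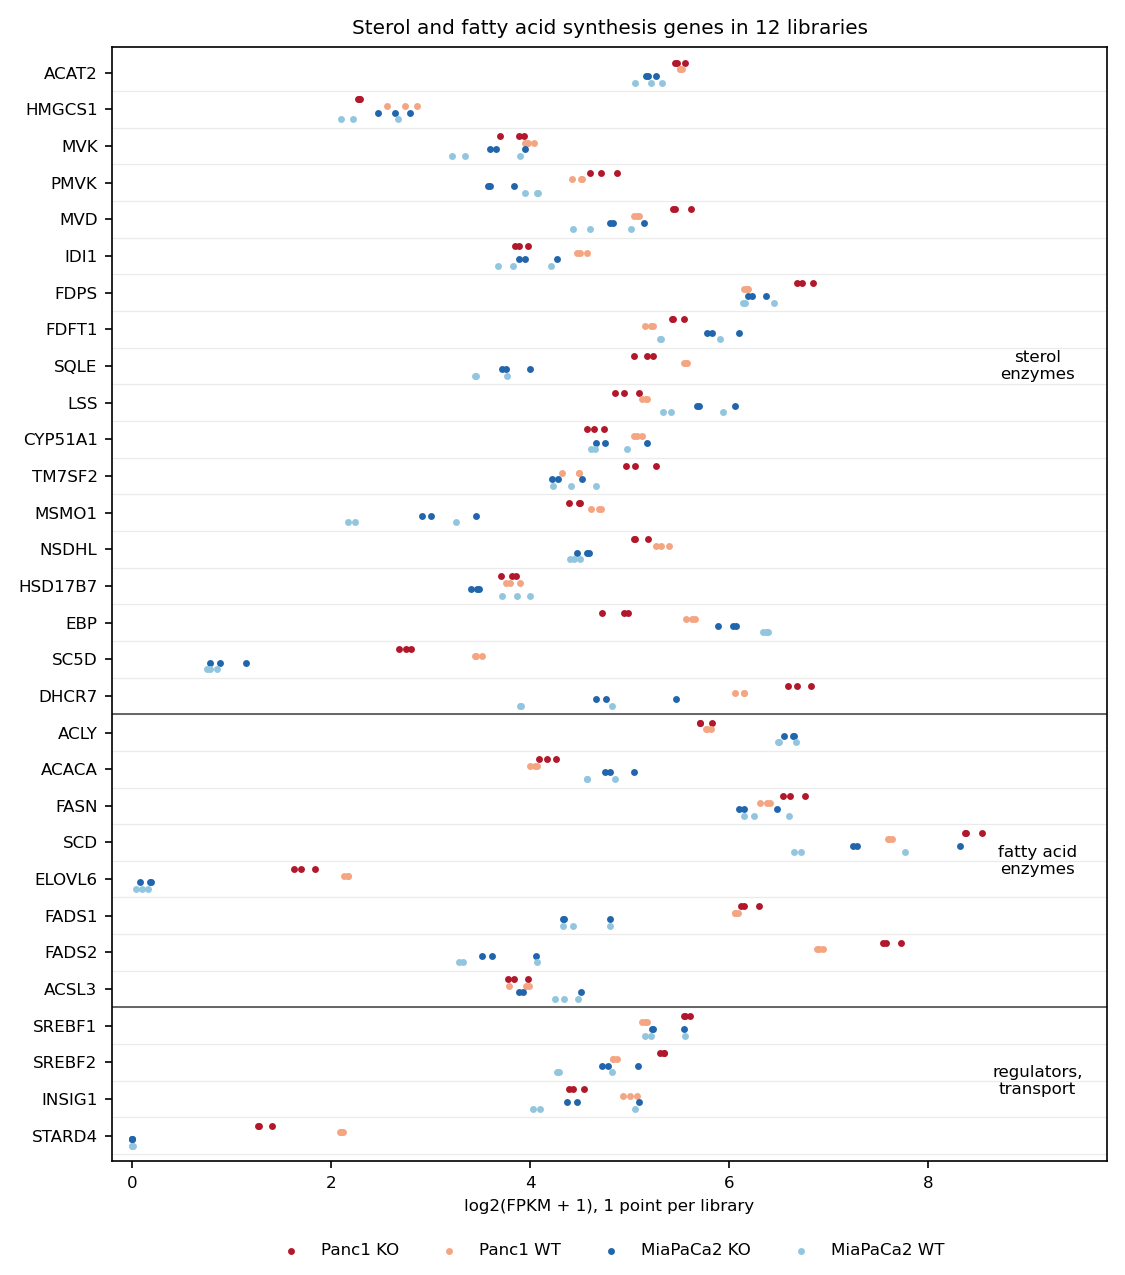
Each point is log2(FPKM + 1) of 1 gene in 1 library; within a gene the rows are Panc1 KO, Panc1 WT, MiaPaCa2 KO and MiaPaCa2 WT from top to bottom, and lines part the sterol enzymes, fatty acid enzymes and regulators. The Panc1 points form tight groups that part between KO and WT for 26 of 30 genes, while the MiaPaCa2 points of a gene often hold 1 library far to the right.

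In Panc1, members changed in both directions in KO cells. At an adjusted p under 0.05 (limma on log2(FPKM + 1), Benjamini-Hochberg over 13340 genes), 9 of 30 members rose and 9 fell, where 21.8% of all tested genes rose and 41.6% fell. The members' median log2 change was -0.03, beside -0.10 over all genes. All KO libraries stood above all WT libraries for 13 members and below them for 13, against 24.7% and 45.3% of all tested genes. With the 6 Panc1 libraries fitted alone, 11 members rose and 12 fell, against 22.5% and 43.0% of all genes. Of all genes' calls, 65.6% were lower as deposited, 50.6% under median-ratio scaling, 52.0% under quantile normalization and 49.6% after correction for GC content and length, so the balance of directions depends on the scaling. Among the members, 12 rose and 8 fell under median-ratio scaling, beside 4042 and 4132 of all 13340 tested genes. After correction for GC content and length 11 rose and 7 fell, beside 3696 and 3639 of 12042 genes. On the TPM scale 7 rose and 10 fell, beside 2335 and 6553 of 13340 genes.

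In the values as deposited, the early mevalonate enzymes parted within the chain. HMGCS1, which makes HMG-CoA, had 3.82, 3.91 and 3.85 FPKM in Panc1 KO libraries, against 5.72, 6.30 and 4.92 FPKM in Panc1 WT libraries. The 3 KO libraries lie below the WT range, and the gene fell by 0.45 log2 units (± 0.13 SE, adjusted p = 0.00949). PMVK, the phosphomevalonate kinase, and MVD, the decarboxylase after it, rose, by 0.24 ± 0.08 (adjusted p = 0.0199) and 0.44 ± 0.13 (adjusted p = 0.00874). MVD had 42.49, 42.9 and 48.1 FPKM in KO libraries, against 32.6, 32.0 and 33.2 FPKM in WT libraries, with no overlap. The PMVK call was lost without Panc1 KO library 3, without Panc1 WT library 1, on the TPM scale (0.17, adjusted p = 0.0683) and after GC and length correction (0.16, adjusted p = 0.0649). The HMGCS1 call was also lost after that correction (-0.12, adjusted p = 0.328), while MVD passed (0.32, adjusted p = 0.0332). The thiolase ACAT2 and the kinase MVK did not pass (log2 changes -0.01 and -0.15).

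IDI1 and FDPS act in sequence to make farnesyl pyrophosphate, the branch point to sterols and prenyl groups, and moved in opposite directions. FDPS has pseudogene copies, so its reads may be shared. IDI1, the isomerase, had 14.8, 13.4 and 13.8 FPKM in Panc1 KO libraries, against 21.7, 22.8 and 21.2 FPKM in Panc1 WT libraries. Each KO library was below each WT library, and it fell by 0.61 ± 0.12 (adjusted p = 0.000837). FDPS, the synthase, had 102, 105 and 114 FPKM in KO libraries, against 71.5, 70.3 and 72.1 FPKM in WT libraries. Each KO library was above each WT library, and it rose by 0.58 ± 0.08 (adjusted p = 3.54e-05).

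Among the later sterol enzymes 5 fell and 2 rose. Over all 18 sterol enzymes 38.9% fell and 27.8% rose, beside 41.6% and 21.8% of all tested genes. SQLE, the squalene epoxidase, had 35.1, 32.1 and 36.8 FPKM in Panc1 KO libraries, against 46.0, 46.3 and 46.7 FPKM in Panc1 WT libraries, and fell by 0.41 ± 0.09 (adjusted p = 0.00176). CYP51A1, the lanosterol demethylase, fell by 0.43 ± 0.12 (adjusted p = 0.00833), and NSDHL, which helps take methyl groups off the sterol ring, by 0.23 ± 0.05 (adjusted p = 0.00275). CYP51A1 overlaps AKAP9 by 25687 bases on the opposite strand, and the NSDHL call was lost under median-ratio scaling. EBP, the sterol isomerase, had 25.4, 29.9 and 30.6 FPKM in KO libraries, against 48.6, 49.7 and 46.3 FPKM in WT libraries. SC5D, a sterol desaturase, had 6.01, 5.43 and 5.73 FPKM in KO libraries, against 10.5, 9.98 and 9.88 FPKM in WT libraries. These were the largest decreases among the 18 sterol enzymes, by 0.74 ± 0.07 (adjusted p = 1.58e-06) for EBP and by 0.72 ± 0.08 (adjusted p = 8.67e-06) for SC5D.

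TM7SF2, a sterol reductase, and DHCR7 rose in Panc1. TM7SF2 had 30.2, 32.2 and 37.4 FPKM in KO libraries, against 19.0, 21.5 and 21.5 FPKM in WT libraries (log2 change 0.66 ± 0.11, adjusted p = 0.000266). DHCR7 had 95.8, 102 and 113 FPKM in KO libraries, against 65.9, 69.9 and 70.2 FPKM in WT libraries (0.58 ± 0.23, adjusted p = 0.0455). The groups are apart for both genes. The SE of DHCR7 holds the spread of the MiaPaCa2 libraries, since the 4 groups share 1 estimate; with the 6 Panc1 libraries alone the adjusted p was 7.1e-05, whereas the call was lost in 12 of the other settings. FDFT1, LSS, MSMO1 and HSD17B7 did not pass, with log2 changes of 0.27, -0.19, -0.21 and -0.02. With the Panc1 libraries alone, FDFT1 passed upward and LSS and MSMO1 downward. After GC and length correction the 4 changes were 0.41, -0.21, 0.18 and 0.10, and only that of FDFT1 passed.

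In the fatty acid branch the desaturases SCD and FADS2 rose in Panc1 and the elongase ELOVL6 fell. SCD had 333, 331 and 371 FPKM in KO libraries, against 193, 198 and 194 FPKM in WT libraries. The 2 groups are far apart beside their spread, but the shared SE of 0.29 gave a log2 change of 0.82 an adjusted p of 0.0267; it was 4.53e-06 with the 6 Panc1 libraries alone, while 8 of the other settings lost the call. FADS2 had 186, 190 and 211 FPKM in KO libraries, against 117, 122 and 119 FPKM in WT libraries (0.70 ± 0.18, adjusted p = 0.00419). ELOVL6, which lengthens palmitate, had 2.25, 2.59 and 2.10 FPKM in KO libraries, against 3.38, 3.50 and 3.50 FPKM in WT libraries, and fell by 0.43 ± 0.06 (adjusted p = 8.46e-05). The shared SE of ELOVL6 also holds the MiaPaCa2 libraries, where it was at most 0.14 FPKM. With the 6 Panc1 libraries alone the adjusted p was 0.000717. ACLY, ACACA, FASN, FADS1 and ACSL3 did not pass, with log2 changes between -0.05 and 0.27. FASN, the fatty acid synthase, came closest, at 92.4, 97.2 and 108 FPKM in KO libraries, against 82.2, 78.4 and 84.3 FPKM in WT libraries (adjusted p = 0.0558). FADS1 and FADS2 overlap by 29692 bases on opposite strands in the annotation, and use of strand in counting is not given, so reads of the shared stretch cannot be told apart. FADS2 also overlaps FEN1 by 4259 bases on the same strand.

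Among the regulators, the genes of both transcription factors rose in Panc1, while INSIG1 and STARD4 were lower. SREBF1 had 47.8, 46.1 and 46.0 FPKM in KO libraries, against 35.2, 34.7 and 33.9 FPKM in WT libraries (0.42 ± 0.10, adjusted p = 0.00265). SREBF2 had 38.6, 39.7 and 39.6 FPKM in KO libraries, against 28.4, 27.6 and 27.6 FPKM in WT libraries (0.48 ± 0.13, adjusted p = 0.005). INSIG1 had 20.6, 20.0 and 22.3 FPKM in KO libraries, against 31.2, 29.6 and 32.7 FPKM in WT libraries. Its groups do not overlap, yet with the shared SE of 0.24 the log2 change of -0.55 did not pass (adjusted p = 0.0574); with the 6 Panc1 libraries alone the adjusted p was 5.61e-05. STARD4 had 1.43, 1.41 and 1.65 FPKM in KO libraries, against 3.29, 3.36 and 3.27 FPKM in WT libraries, and fell by 0.79 ± 0.05 (adjusted p = 1e-07), a figure that the added 1 FPKM shrinks at so low a level. Its shared SE also holds the MiaPaCa2 libraries, where it was at most 0.01 FPKM and hardly varied. With the 6 Panc1 libraries alone the adjusted p was 1.67e-05.

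The Panc1 changes ran with the base composition of the transcripts. Across the 30 members the log2 change and the GC content of the transcript correlated at a Spearman rho of 0.65, beside 0.43 over the 12042 tested genes with annotated transcripts; the points share libraries and are no replicates. The 9 members that rose had a median GC content of 59.0% and the 9 that fell one of 41.0%, where all genes that rose or fell had medians of 55.8% and 43.9%. Transcripts of at most 40% GC had a median change of -0.36 over all genes, and those above 60% one of 0.07. After transcript GC content and length were fitted out library by library, an alternative chosen after seeing the data, STARD4 changed by -0.33, SC5D by -0.36, IDI1 by -0.25, ELOVL6 by -0.18 and SQLE by -0.27, and all of these still passed. HMGCS1 (-0.12), CYP51A1 (-0.16) and PMVK (0.16) no longer passed. EBP (-0.76), FDPS (0.54), TM7SF2 (0.55), SCD (0.94), FADS2 (0.67), SREBF1 (0.36) and SREBF2 (0.46) passed as before. In MiaPaCa2 the same rho was -0.12 over the members and -0.10 over all genes.

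**Figure D3:**
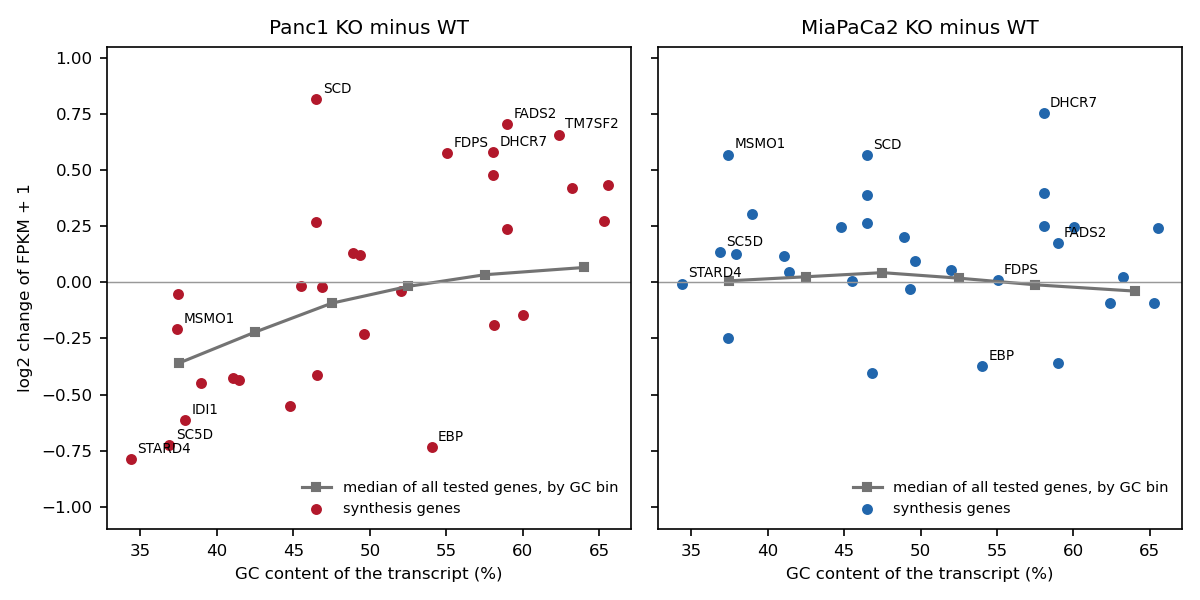
Points are the 30 genes, with the GC content of the transcript in percent on the horizontal axis and the log2 change of FPKM + 1, KO minus WT, on the vertical axis; grey squares joined by a line are medians of all tested genes in GC bins. In Panc1 members and medians climb with GC content, while EBP (-0.74) and SCD (0.82) lie far from the line; in MiaPaCa2 the line is flat.

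Median changes also differed between chromosomes, in values not corrected for GC content. In Panc1 the median change on chromosome 7, which holds CYP51A1 and INSIG1, minus that of the other chromosomes was -0.25 log2 units. It was -0.20 on the X chromosome, with NSDHL and EBP, -0.19 on chromosome 5, with HMGCS1 and STARD4, and 0.15 on chromosome 17, with ACLY, ACACA, FASN and SREBF1. EBP lies at chrX:48380187-48387104 and STARD4 at chr5:110831731-110848288 (GRCh37). In MiaPaCa2 the same figure was -0.17 on chromosome 2, which holds ACSL3 and ASAP2, and between -0.07 and 0.10 on the other chromosomes. The part of position in these results was not tested.

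In the MiaPaCa2 line few members passed, and the members varied more between libraries than most genes. Their median SD within a group was 0.18 log2 units in KO and 0.22 in WT cells, beside 0.08 and 0.07 over all tested genes. In KO against WT cells 4 of 30 rose, where 17.8% of all tested genes did, and 3 fell, where 16.3% did. The members' median log2 change was 0.12, beside 0.01 over all genes. No member had all KO libraries above all WT libraries, against 23.0% of all genes, and 3 had them all below, against 20.5%. None of the 8 fatty acid enzymes passed.

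The 3 decreases were those of PMVK, HSD17B7 and EBP, and none of these stood at least 0.25 log2 units high in both libraries named above. EBP had 58.2, 66.3 and 64.8 FPKM in MiaPaCa2 KO libraries, against 83.3, 82.0 and 80.4 FPKM in MiaPaCa2 WT libraries. PMVK had 10.98, 11.1 and 13.3 FPKM in KO libraries, against 15.8, 14.5 and 16.0 FPKM in WT libraries. HSD17B7, a keto-reductase of the sterol ring, had 10.1, 10.2 and 9.64 FPKM in KO libraries, against 15.0, 12.2 and 13.6 FPKM in WT libraries. For each of them every KO library was below every WT library, and they fell by 0.37 ± 0.07 (EBP, adjusted p = 0.00122), 0.36 ± 0.08 (PMVK, adjusted p = 0.00457) and 0.40 ± 0.07 (HSD17B7, adjusted p = 0.000905). HSD17B7 has a near-identical pseudogene, so its value is uncertain. EBP thus fell in KO cells of both lines. In the annotation it overlaps another protein-coding gene on the same strand by 6911 bases, so its reads may be shared.

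The 4 increases were FDFT1, the squalene synthase, SQLE, DHCR7 and SREBF2, and for each the KO and WT ranges overlapped. SREBF2 had 25.5, 32.9 and 26.5 FPKM in MiaPaCa2 KO libraries, against 27.4, 18.3 and 18.6 FPKM in MiaPaCa2 WT libraries (0.40 ± 0.13, adjusted p = 0.0267). FDFT1 had 54.0, 67.7 and 55.7 FPKM in KO libraries, against 59.3, 38.7 and 38.9 FPKM in WT libraries (0.39 ± 0.13, adjusted p = 0.0406). DHCR7, with the values given above, had a log2 change of 0.75 ± 0.23 (adjusted p = 0.0255), and SQLE one of 0.26 ± 0.09 (adjusted p = 0.0408). All 4 calls were lost without MiaPaCa2 KO library 2, without WT library 2 or 3, and with the 6 MiaPaCa2 libraries alone.

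With MiaPaCa2 KO library 2 and WT library 1 both left out, an alternative chosen after seeing the members' own values, 13 of 30 members rose, against 17.1% of all tested genes, and 4 fell, against 13.8%. The KO group then has 2 libraries and the WT group 2. Leaving out libraries picked by the members' own values narrows the spread of many of the same genes, so these calls cannot serve as a test. The 13 were HMGCS1, MVK, MVD, FDFT1, SQLE, LSS, MSMO1, DHCR7, ACACA, SCD, FADS2, SREBF2 and INSIG1. MSMO1, the methylsterol oxidase, then had a log2 change of 0.76, DHCR7 one of 0.81, SCD one of 0.58 and INSIG1 one of 0.35. With all libraries MSMO1 had 6.56, 9.97 and 7.03 FPKM in KO libraries, against 8.58, 3.51 and 3.71 FPKM in WT libraries, and did not pass (adjusted p = 0.0722). Without WT library 1 alone 13 members rose, beside 2254 of 13340 tested genes. Without KO library 2 alone none did, beside 2283 of the tested genes. The MiaPaCa2 increases thus depend on which libraries enter the fit.

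**Figure D4:**
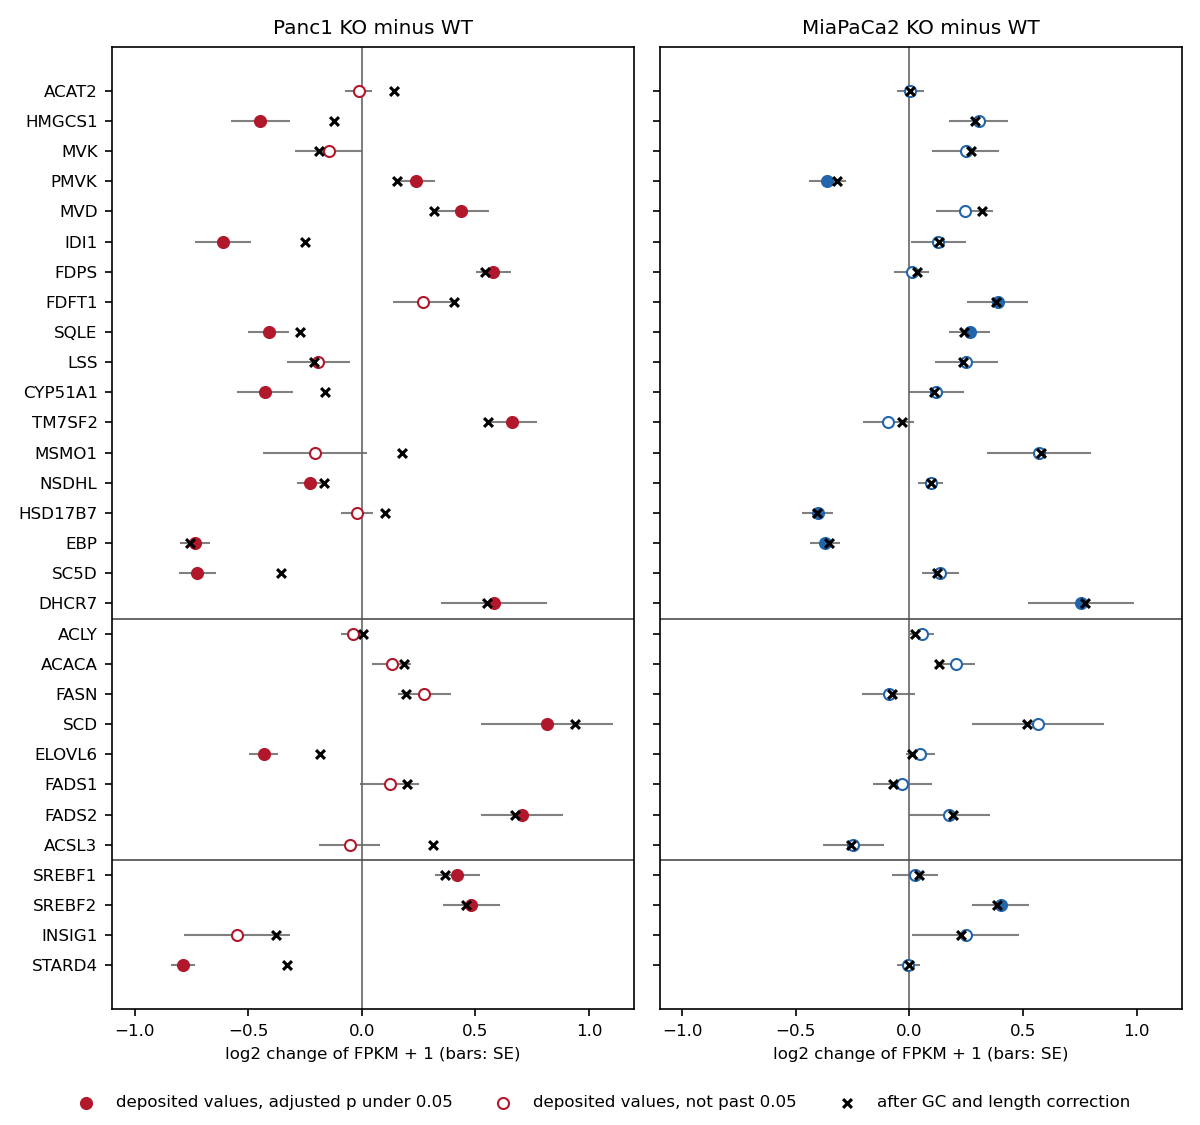
Circles are log2 changes of FPKM + 1, KO minus WT, with SE bars, in Panc1 (left) and MiaPaCa2 (right); filled circles passed an adjusted p of 0.05 and crosses are values after GC and length correction. Panc1 has 9 filled circles on each side of 0, MiaPaCa2 has 4 to the right and 3 to the left, and crosses move most for low-GC genes in Panc1.

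The difference between the KO effects, Panc1 minus MiaPaCa2, passed for 14 members, upward for 5, against 20.0% of all tested genes, and downward for 9, against 37.4%. Upward were PMVK (0.60 ± 0.11, adjusted p = 0.000773), FDPS (0.57 ± 0.11, adjusted p = 0.000837), TM7SF2, HSD17B7 and SREBF1, the last of which lost its call in 9 settings. Downward were SC5D (-0.86 ± 0.12, adjusted p = 6.26e-05), STARD4, HMGCS1, IDI1, SQLE, CYP51A1, ELOVL6, EBP and NSDHL. After GC and length correction the difference did not pass for CYP51A1 (-0.27, adjusted p = 0.145), ELOVL6 (-0.20, adjusted p = 0.1) and SREBF1 (0.32, adjusted p = 0.0705). It was smaller but passed for SC5D (-0.48), STARD4 (-0.33), HMGCS1 (-0.41) and IDI1 (-0.38). The CYP51A1 and NSDHL differences were also lost under median-ratio scaling. PMVK rose in Panc1 and fell in MiaPaCa2, and SQLE fell in Panc1 and rose in MiaPaCa2, each past the threshold. The PMVK rise was lost in 4 of 24 other settings and the SQLE rise in 12 of 24. EBP fell in both, by more in Panc1; under median-ratio scaling the difference kept its sign and did not pass (-0.22, adjusted p = 0.0917). DHCR7 and SREBF2 rose in both, and their difference did not pass: -0.17 ± 0.33 (adjusted p = 0.673) and 0.08 ± 0.18 (adjusted p = 0.72). Their MiaPaCa2 calls were lost in 5 and 6 of 24 other settings, and the DHCR7 call in Panc1 in 12. For STARD4, SC5D and ELOVL6 the difference rests on Panc1, since their MiaPaCa2 levels were at most 1.21 FPKM.

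The WT lines differed from each other for most members, as they did for most tested genes, and more of the members' calls were upward. In Panc1 WT against MiaPaCa2 WT cells 18 of 30 members were higher, against 41.8% of all tested genes, and 6 lower, against 40.9%, and the members' median was 0.39 beside 0.00 over all genes. FADS2 had 117, 122 and 119 FPKM in Panc1 WT libraries, against 15.8, 9.06 and 8.73 FPKM in MiaPaCa2 WT libraries (log2 difference 3.35 ± 0.18, adjusted p = 1.2e-09). SC5D had 10.5, 9.98 and 9.88 FPKM in Panc1 WT libraries, against 0.81, 0.69 and 0.73 FPKM in MiaPaCa2 WT libraries (2.67 ± 0.08, adjusted p = 4.19e-12). MSMO1 (2.12 ± 0.23), ELOVL6 (2.06 ± 0.06), SQLE (2.003 ± 0.09), DHCR7 (1.91 ± 0.23) and FADS1 (1.55 ± 0.13) were higher in Panc1 WT as well. STARD4, SC5D and ELOVL6 passed the filter of 1 FPKM through Panc1 alone, so that a difference between the lines was bound to appear for them.

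Lower in Panc1 WT were EBP, ACLY, ACACA, ACSL3, LSS and FDFT1; the FDFT1 call (-0.31, adjusted p = 0.0457) was lost in 16 of 23 other settings. EBP had 48.6, 49.7 and 46.3 FPKM in Panc1 WT libraries, against 83.3, 82.0 and 80.4 FPKM in MiaPaCa2 WT libraries (log2 difference -0.75 ± 0.07, adjusted p = 2.36e-07). ACLY (-0.77 ± 0.05) and ACACA (-0.62 ± 0.09), the enzymes that make acetyl-CoA and malonyl-CoA for fatty acids, were lower in Panc1 WT, while FASN did not pass, at 82.2, 78.4 and 84.3 FPKM in Panc1 WT libraries, against 96.5, 75.4 and 70.0 FPKM in MiaPaCa2 WT libraries (0.03 ± 0.12, adjusted p = 0.813). FDPS, TM7SF2, HSD17B7, SCD and SREBF1 did not pass either.

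Genes around these pathways are named by the 2 largest called changes per list and line. Of 9 other sterol genes, 3 rose and 3 fell in Panc1 KO cells and 1 rose and 3 fell in MiaPaCa2 KO cells. These are 33.3% and 33.3% in Panc1, beside 21.8% and 41.6% of all tested genes, and 11.1% and 33.3% in MiaPaCa2, beside 17.8% and 16.3%. SCAP, the escort of the transcription factors, had 21.8, 21.7 and 21.7 FPKM in Panc1 KO libraries, against 15.2, 16.1 and 16.7 FPKM in Panc1 WT libraries (0.42 ± 0.05, adjusted p = 7.09e-06), and fell by 0.16 ± 0.05 in MiaPaCa2 KO cells (adjusted p = 0.0186), a call lost in 4 of 24 other settings, among them those without WT library 1 or WT library 2. MBTPS2, a protease that releases them, fell by 0.68 ± 0.06 in Panc1 KO cells (adjusted p = 1.9e-06; -0.38 after GC and length correction) and had a change of -0.06 in MiaPaCa2 (adjusted p = 0.476). LBR, which has sterol reductase activity, fell in KO cells of both lines, by 0.40 ± 0.05 in Panc1 and 0.25 ± 0.05 in MiaPaCa2; after GC and length correction the Panc1 change was -0.04 and did not pass (adjusted p = 0.526).

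Of 10 genes of the isoprenoid branch, 2 rose and 3 fell in Panc1 KO cells, and none rose and 3 fell in MiaPaCa2 KO cells. These are 20% and 30% in Panc1, beside 21.8% and 41.6% of all tested genes, and 0% and 30% in MiaPaCa2, beside 17.8% and 16.3%. GGPS1, which makes geranylgeranyl pyrophosphate, fell by 0.49 ± 0.09 in Panc1 (adjusted p = 0.000381), and PGGT1B, a subunit of the enzyme that attaches it to proteins, by 0.53 ± 0.09 (adjusted p = 0.000182). After GC and length correction GGPS1 changed by -0.21 (adjusted p = 0.0241) and PGGT1B by -0.11, which did not pass (adjusted p = 0.168). PDSS1, which builds the side chain of ubiquinone, fell in both lines, by 0.41 ± 0.08 in Panc1 KO cells (-0.21 after the correction) and by 0.31 ± 0.08 in MiaPaCa2 KO cells. Of 9 genes of sterol export and esterification, 3 rose and 3 fell in Panc1 KO cells, and 4 rose and none fell in MiaPaCa2 KO cells, which is 33.3% and 33.3% in Panc1 and 44.4% and 0% in MiaPaCa2, beside the same shares of all genes. ABCA1, the cholesterol exporter, had 2.46, 2.10 and 2.39 FPKM in MiaPaCa2 KO libraries, against 0.87, 0.82 and 0.75 FPKM in MiaPaCa2 WT libraries (0.87 ± 0.06, adjusted p = 1.29e-06), while its Panc1 change of -0.16 ± 0.06 (adjusted p = 0.0446) lost the call in 15 of 23 other settings. SOAT1, which esterifies cholesterol, fell by 0.42 ± 0.05 in Panc1 KO cells (-0.12 after GC and length correction, adjusted p = 0.0692) and rose by 0.32 ± 0.05 in MiaPaCa2 KO cells.

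Of 16 other genes of fatty acid synthesis, 6 rose and 5 fell in Panc1 KO cells, and 4 rose and 3 fell in MiaPaCa2 KO cells. These are 37.5% and 31.2% in Panc1, beside 21.8% and 41.6% of all tested genes, and 25.0% and 18.8% in MiaPaCa2, beside 17.8% and 16.3%. SCD5, a second stearoyl-CoA desaturase, had 13.0, 12.6 and 13.9 FPKM in Panc1 KO libraries, against 1.99, 2.20 and 1.71 FPKM in Panc1 WT libraries (2.26 ± 0.07, adjusted p = 1.51e-10), and rose by 0.41 ± 0.07 in MiaPaCa2 KO cells. MID1IP1, which helps acetyl-CoA carboxylase polymerise, had 0.41, 0.27 and 0.44 FPKM in MiaPaCa2 KO libraries, against 4.39, 4.51 and 3.97 FPKM in MiaPaCa2 WT libraries (-1.95 ± 0.07, adjusted p = 4e-09), and rose by 0.50 ± 0.07 in Panc1 KO cells. Of 16 genes of fatty acid oxidation, 3 rose and 7 fell in Panc1 KO cells, and none rose and 7 fell in MiaPaCa2 KO cells. The share that fell was thus 43.8% in each line, near the 41.6% of all genes in Panc1 and above the 16.3% of all genes in MiaPaCa2, and the share that rose was 18.8% in Panc1. CPT1A, which passes fatty acids to the mitochondrion, had 41.6, 42.8 and 46.0 FPKM in Panc1 KO libraries, against 60.1, 61.1 and 59.3 FPKM in Panc1 WT libraries, and fell by 0.46 ± 0.05 there and by 0.33 ± 0.05 in MiaPaCa2 KO cells. Of 11 genes of glycerolipid synthesis and storage, 2 rose and 5 fell in Panc1 KO cells, and 1 rose and 2 fell in MiaPaCa2 KO cells. These are 18.2% and 45.5% in Panc1 and 9.09% and 18.2% in MiaPaCa2, beside the same shares of all genes.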

How the data were processed

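RNA of 12 libraries was measured by RNA-seq. ISOGEN II was the extraction reagent and BGISEQ-500 the sequencer, per the labels' protocols. The authors trimmed and filtered reads, used TopHat2 2.0.14 for alignment to hg19 (GRCh37) and STAR 2.5.2a for FPKM, per the design text and the submitters' processing notes; library kit, strand and read number are not stated there. Each deposited file gives 1 FPKM value per symbol; a symbol missing from a library was taken as 0.

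From these, limma 3.58.1 in R 4.3.3 was fitted to log2(FPKM + 1) with 1 mean per group over all 12 libraries (8 residual degrees of freedom) and a variance trend, and two-sided p-values were adjusted (Benjamini-Hochberg) over 13340 genes whose mean reached 1 FPKM in either line (6 libraries); calls were at an adjusted p under 0.05. The method was tested on simulated data. Fold changes are on the log2(FPKM + 1) scale, which understates low genes. No read steps were visible in low values, so no count test was run, and without depth no counting interval is given. Groups come from the sample labels. Positions, transcript length and GC content come from GENCODE release 44 mapped to GRCh37, promoters from RefSeq (GRCh38.p14). Named are all members, ASAP2, and from each other list and line the 2 largest called changes whose KO and WT values do not overlap and whose higher group averages 1 FPKM or more; the STARD4 neighbours and cell type markers stand outside that rule. The members and lists were chosen with earlier results of these data known. Alternatives covered pseudocount, filter, scaling, trend, array weights, replicate block, each line alone and each library left out in turn; the GC and length correction (loess, span 0.3) and leaving out 2 MiaPaCa2 libraries were chosen after seeing the data.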

Additional observations from a re-analysis of the deposited data

Results flagged for a closer look

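Each value below is the log2 change in KO against WT cells of Panc1 minus that of MiaPaCa2, and each is given because this difference itself passed an adjusted p of 0.05 in limma. With MiaPaCa2 KO library 2 and WT library 1 standing apart, the MiaPaCa2 effects of many members carry their spread.

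Among the sterol enzymes the difference was -0.75 for HMGCS1, -0.74 for IDI1, -0.67 for SQLE and -0.54 for CYP51A1. It was -0.86 for SC5D, -0.36 for EBP and -0.32 for NSDHL. It was 0.75 for TM7SF2, 0.60 for PMVK, 0.57 for FDPS and 0.38 for HSD17B7. Among the other members it was -0.48 for ELOVL6, -0.78 for STARD4 and 0.40 for SREBF1. After GC and length correction, chosen after seeing the data, the difference was -0.41 for HMGCS1, -0.38 for IDI1, -0.48 for SC5D and -0.33 for STARD4, and it did not pass for CYP51A1 (-0.27), ELOVL6 (-0.20) and SREBF1 (0.32). The SREBF1 difference was lost in 9 of 23 other settings.

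Around the pathway, MBTPS2 had a difference of -0.61, SCAP one of 0.58 and AACS, which activates acetoacetate, one of 0.20. In the isoprenoid branch it was -0.48 for PGGT1B, -0.62 for GGPS1 and 0.31 for RABGGTA. For sterol export and esterification it was -0.73 for SOAT1, -0.47 for OSBP and -1.03 for ABCA1. In other fatty acid synthesis it was 1.85 for SCD5, 2.45 for MID1IP1 and 0.23 for ELOVL1. For glycerolipid genes it was -0.93 for LPIN1, 1.28 for FABP5 and -0.40 for LPIN2, and for the mitochondrial carnitine carrier SLC25A20 it was -0.34. The AACS difference (adjusted p = 0.0482) was lost in 14 of 23 other settings, that of ELOVL1 in 8 and that of SLC25A20 in 7. After GC and length correction PGGT1B (-0.05) and RABGGTA (0.19) did not pass, and GGPS1 (-0.33), MBTPS2 (-0.30) and SOAT1 (-0.41) were smaller and passed.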

How the results depend on the processing

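The count of members higher in MiaPaCa2 KO cells was the least stable. It was 4 as reported, beside 2373 of all 13340 tested genes. Without a filter it was 0 (2435 of 22641 genes), as with the 6 MiaPaCa2 libraries alone (1652 of 13340). It was 1 with the replicate block (2034), 2 with median-ratio scaling (2076) and 8 with array weights (3462). After GC and length correction it was 7 (2365 of 12042). Without KO library 2 and WT library 1 it was 13 (2279 of 13340). Leaving out each library in turn gave 0 to 13. The count was 0 without MiaPaCa2 KO library 2 (2283 of all genes), WT library 2 (1754) or WT library 3 (1771). It was 13 without WT library 1 (2254). It was 2 without Panc1 KO library 1 (2392) or Panc1 WT library 1 (2259), 2 (2272) or 3 (2293). For the difference between lines, 5 members upward became 9 and 9 downward became 15 with both libraries left out. All tested genes went from 2668 to 2568 upward and from 4993 to 5006 downward. With each library left out in turn the counts of members were 4 to 8 upward and 9 to 14 downward. The 8 came without MiaPaCa2 KO library 2 (2619 of all genes) and the 14 without MiaPaCa2 WT library 1 (4852). The other counts of members stayed within 1.5 times under each alternative that was run, and the replicate block moved no other count that far. Same-numbered libraries correlated in their deviations at 0.02, 0.03 and 0.08 in Panc1 and -0.13, -0.17 and -0.0019 in MiaPaCa2. The other MiaPaCa2 pairs ran from -0.19 to 0.25, and the highest was KO library 2 with WT library 1. Not every library correlated best with its own number, so numbers were not taken as pairs.

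After GC and length correction the sign turned and the new value passed for ACAT2 (0.14, adjusted p = 0.0353) and ACSL3 (0.31, adjusted p = 0.013) in Panc1. The same held for LBR in the difference (0.21, adjusted p = 0.029). Among the members the sign also turned in Panc1, without passing, for MSMO1 (-0.21 to 0.18), HSD17B7 (-0.02 to 0.10) and ACLY (-0.04 to 0.003). In the difference it turned without passing for ACAT2, MVD, FDFT1 and ACACA. Over all genes, that correction gave 3639 lower calls in Panc1 against 5556, and 3131 in the difference against 4993. Lower calls made up 65.6% of all calls in Panc1 as deposited, 73.7% on the TPM scale, 50.6% with median-ratio scaling, 52.0% with quantile normalization and 49.6% after the correction. With 3 libraries a group and unknown depth, low genes such as STARD4 and ELOVL6 in MiaPaCa2 have an unknown counting error. A count test was not run.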

Other observations

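Around STARD4 on chromosome 5, values of nearby genes on each side are given because STARD4 was hardly listed in MiaPaCa2. They were chosen after its values were seen, and other genes of the region are not described. NREP, on one side, had 9.19, 10.2 and 10.9 FPKM in Panc1 KO libraries, against 9.62, 10.1 and 10.1 FPKM in Panc1 WT libraries (log2 change 0.02 ± 0.06, limma adjusted p = 0.786), and in MiaPaCa2 was listed in WT library 1 alone, at 0.09 FPKM. EPB41L4A, beyond it, had 0.25, 0.27 and 0.22 FPKM in Panc1 KO libraries, against 0.32, 0.29 and 0.42 FPKM in Panc1 WT libraries, and 0.43 to 0.69 FPKM in MiaPaCa2 KO libraries, against 0.44 to 0.61 FPKM in MiaPaCa2 WT libraries. Farther out on that side, APC fell by 0.88 ± 0.12 in Panc1 KO cells (adjusted p = 4.53e-05) and SRP19 by 0.73 ± 0.06 (adjusted p = 3.52e-07). Their MiaPaCa2 changes of 0.08 and -0.08 did not pass. CAMK4, on the other side, was at most 0.05 FPKM in each Panc1 library and not listed in MiaPaCa2. WDR36, beyond it, had 4.61, 4.37 and 3.99 FPKM in Panc1 KO libraries, against 7.35, 7.24 and 6.85 FPKM in Panc1 WT libraries (-0.62 ± 0.06, adjusted p = 2.52e-06). In MiaPaCa2 it had 10.5, 11.4 and 10.2 FPKM in KO libraries, against 10.8, 10.01 and 10.6 FPKM in WT libraries, with overlapping ranges.

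In the glycerolipid list, LPIN1, a phosphatidate phosphatase that is also a target of the sterol-regulated factors, had 5.10, 4.65 and 4.88 FPKM in Panc1 KO libraries, against 12.3, 11.99 and 11.9 FPKM in Panc1 WT libraries, and fell by 1.15 ± 0.09 (adjusted p = 5.8e-07). LPIN1 lies at chr2:11817721-11967535, near ASAP2 at chr2:9346894-9545812 (GRCh37), which had a log2 change of -1.36 in Panc1. The median change on chromosome 2 minus that of the other chromosomes was 0.01 in Panc1 and -0.17 in MiaPaCa2. The part of that position was not tested. FABP5, a fatty acid carrier with pseudogene copies that may share its reads, had 2.67, 2.34 and 1.94 FPKM in MiaPaCa2 KO libraries, against 9.99, 13.3 and 12.9 FPKM in MiaPaCa2 WT libraries, and fell by 1.97 ± 0.10 there (adjusted p = 3.22e-08) and by 0.69 ± 0.10 in Panc1 KO cells (adjusted p = 4.76e-05). LPIN2 rose by 0.35 ± 0.06 in MiaPaCa2 KO cells (adjusted p = 0.000763).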
